A study of Mus musculus with 4 samples.

Results

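The genes described here copy DNA and supply its building blocks during S phase. They were chosen by name, as 47 listed S-phase genes without mitosis genes, and every probe of the bead table that carried a listed name was taken. Of the 47 names 42 were found, on 86 of the 45281 probes. The names RFC1, CDT1, GINS1, GINS2 and DUT were not found in the table, and probes of these genes under older names are described apart. RNA came from whole thymus of C57BL/6 mice that carried either a miR-181d transgene (the line labelled Tg-8) or a miR-181d knockin allele, with 2 arrays for each genotype and 4 in all. The labels give no age, no promoter for the transgene and no account of how the knockin was built, and no wild-type thymus enters the comparison, so each value places one genotype against the other. The labels do not say whether samples of a genotype came from separate mice. Sex-linked transcripts, given below, differed between the knockin arrays, whose RNA was thus not from the same mouse, while for the transgenic arrays the spread behind the p-values may be technical.

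Replication starts at origins. The origin recognition complex (ORC) and Cdc6 load the MCM helicase onto DNA before S phase, the Cdc7 and Dbf4 kinase, Cdc45 and Mcm10 help to switch it on, and polymerases then copy both strands behind it. Ribonucleotide reductase, thymidylate synthase and thymidine kinase supply the nucleotides, and the chromatin assembly factor CAF-1 places histones on the new DNA. In the thymus, immature double-negative cells and the large cycling cells that follow them divide rapidly, whereas most double-positive thymocytes are small and rest. The genotypes differ in miR-181d, a microRNA of immature thymocytes, whose mature RefSeq sequence (assembly GRCm38.p6, chr8:84178759-84178781, minus strand) is shown because it is the manipulated molecule, with its seed, bases 2 to 8, in capitals.
mmu-miR-181d-5p: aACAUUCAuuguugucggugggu

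Each array gives a linear bead signal per probe, and most probes of any array lie in a background band. A probe was taken as above background where it exceeded its array's limit, 146.5 to 148.6 signal units, on both arrays of at least 1 genotype. Median signals were 140.5 to 145.8, under the limit on each array. Above it lay 47.9% of probes on transgenic array 1 and 47.2% on knockin array 2, against 43.2% and 44.0% on transgenic array 2 and knockin array 1. Signal summed over the brightest probes of all genes was 18828358.4 and 17120100.5 on the transgenic arrays, against 17942565.1 and 19837260.7 on the knockin arrays. Transgenic array 1 and knockin array 2 were thus the brighter arrays of their genotypes. Of the replication genes 40 of 42, and 72 of their 86 probes, were above background. Pola1, the catalytic subunit of polymerase alpha, and Prim1, the small primase subunit, lay in the band on all 4 arrays and have no usable level here. Orc2 and Pole2 stood just over the limit on 2 arrays each, with signals of 140.3 to 152.2 and 137.7 to 152.8, and Orc4 was near it at 153.8 to 165.1. For a gene with several probes the brightest stands for it unless another is named.

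Markers of double-positive thymocytes were measured as a check of the tissue label, with Rag1 at 2651.5 to 3415.4, Dntt at 2676.5 to 3359.9 and Cd4 at 385.2 to 582.5 over the arrays, while the Cd8a probe stayed in the band (130.7 to 137.9). Knockin array 2 differed from the other 3 arrays in sex-linked transcripts, with Xist at 129.5 against 4365.6 to 4569.8 and Ddx3y at 3519.3 against 484.4 to 553.7, so it carried a male pattern and the others a female one. The number of arrays limits the precision of every value, and in bulk tissue fewer cells of a type and less RNA per cell cannot be told apart.

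Between the genotypes, none of the replication genes passed the test. At a limma adjusted p under 0.05 (Benjamini-Hochberg, over all probes), 0 of the 86 probes were called, where 36 of 45281 (0.0795%) were called on the whole array, 23 higher (0.0508%) and 13 lower (0.0287%) in transgenic thymus. At an unadjusted p under 0.05 there were 5 of 86, against 4.63% of all probes. Of these 5, 4 read lower in transgenic thymus, against 2.46% of all probes, and 1 read higher, against 2.17%. The arrays of the genotypes did not overlap for 14 of the 72 probes above background (19.4%), fewer than the 32.7% of all such probes. The limma adjusted p was 0.813 for 1 probe of Mcm6 and 0.9996 or more for every other of the 86 probes, which leave out the older names. With 2 arrays against 2, an exact two-sided permutation test of a single value cannot go below 0.333.

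Small negative values were more frequent among the replication genes than positive ones. On the brightest probes 28 of the 40 genes read lower and 12 higher in transgenic thymus, with a median log2 difference, transgenic minus knockin, of -0.038 and a range of -0.45 to 0.23, whereas the median over 14509 genes above background was 0.0028. Over probes, 47 of 72 (65.3%) lay below 0, against 49.7% of all probes above background. This median depended on single knockin arrays, being -0.16 without knockin array 1 and 0.064 without knockin array 2. For 38 of the 40 genes (95%) the genotype difference was smaller than the larger of the differences between arrays of the same genotype, against 78.4% of all genes.

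**Figure D1:**
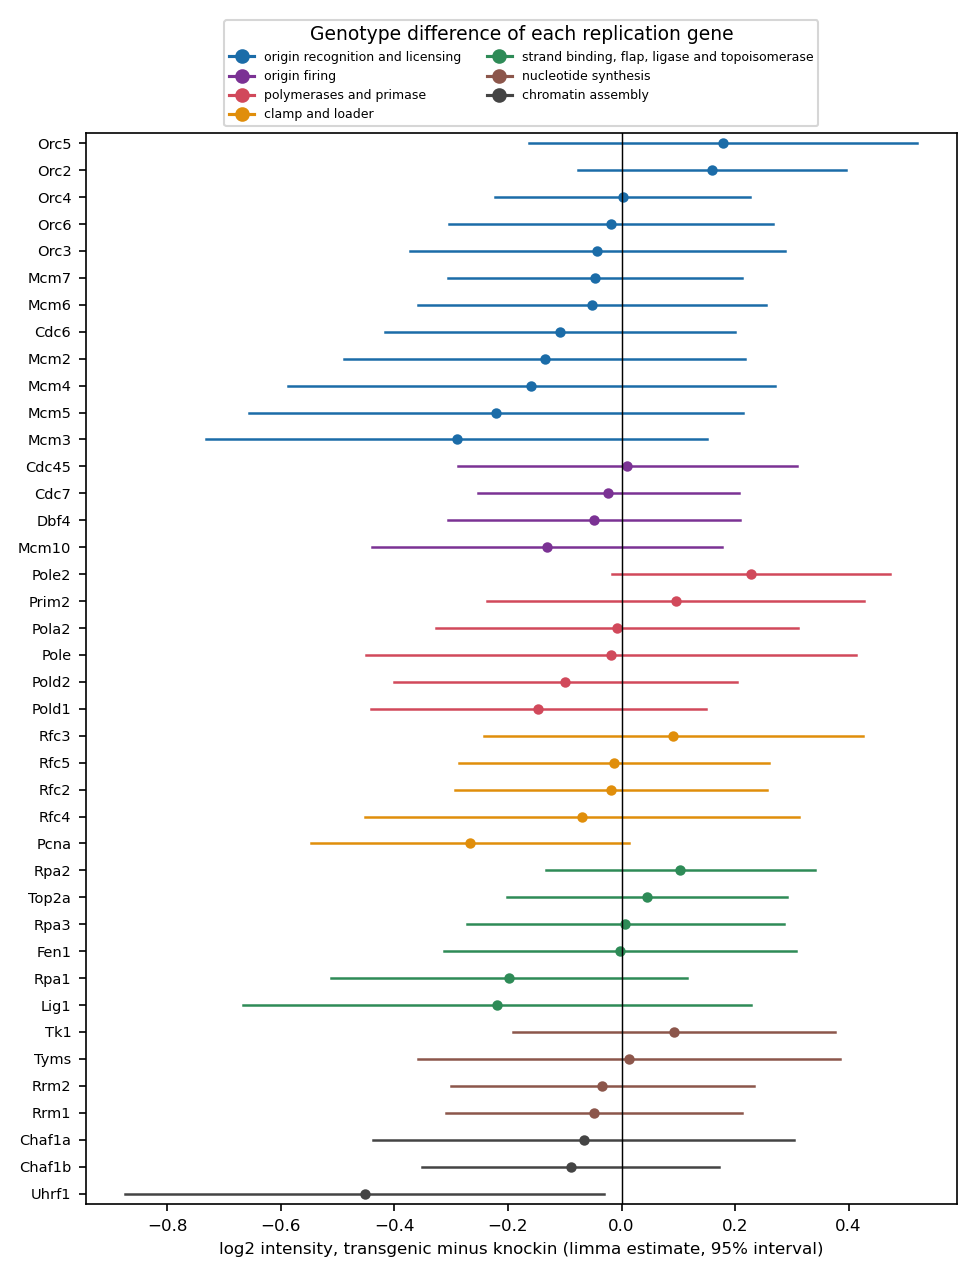
Log2 intensity difference, transgenic minus knockin, for the 40 replication genes above background (brightest probe, point: limma estimate, bar: 95% interval, colour: group). The intervals of all genes but Uhrf1 cross 0, and the estimates run from -0.45 (Uhrf1) to 0.23 (Pole2).

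What separated the replication genes was the array within a genotype. Most helicase and polymerase genes, the ligase gene and the chromatin assembly genes read higher on transgenic array 1 than on transgenic array 2 and higher on knockin array 2 than on knockin array 1, while most ORC subunits, clamp loader subunits and thymidylate synthase read lower on transgenic array 1 than on transgenic array 2. These differences set 1 array against 1, so they carry no test and are given as descriptions. The direction for the knockin arrays, 2 minus 1, was chosen after the values were seen. Across the 40 genes, which share the 4 arrays and are not independent replicates, the difference between the transgenic arrays and that between the knockin arrays correlated at r = 0.83, against 0.34 across the 14509 genes above background.

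By probe, 29 of 72 (40.3%) read higher on both transgenic array 1 and knockin array 2, against 30.1% of all probes above background, and 12 (16.7%) did so by more than 0.25 in log2 on both sides, against 3.59%. Fewer, 19 of 72 (26.4%), read lower on both, against 31.8%. On transgenic array 2 alone 17 of 72 (23.6%) exceeded array 1 by more than 0.25, against 14.2%. Under the 5 normalizations tried, 17 genes read higher on transgenic array 1 and on knockin array 2 each time. They were Mcm2, Mcm3, Mcm4, Mcm5, Mcm6, Mcm10, Pola2, Pold1, Pold2, Pole, Rpa1, Fen1, Lig1, Rrm2, Chaf1a, Chaf1b and Uhrf1. A further 14 read lower on transgenic array 1 than on array 2 each time, namely Orc2, Orc3, Orc5, Orc6, Cdc45, Pcna, Rfc3, Rfc4, Pole2, Prim2, Rpa3, Top2a, Rrm1 and Tyms. Of those 14, Orc5, Pole2 and Rpa3 also read lower on knockin array 2 than on knockin array 1 under all 5. Signs kept under all 5 normalizations were not counted over all genes. Under the main normalization 17 of the 40 genes read higher on both arrays, against 4408 of 14509 genes. Higher on transgenic array 1 than on array 2 were the same 17 of 40, against 7241 of 14509.

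**Figure D2:**
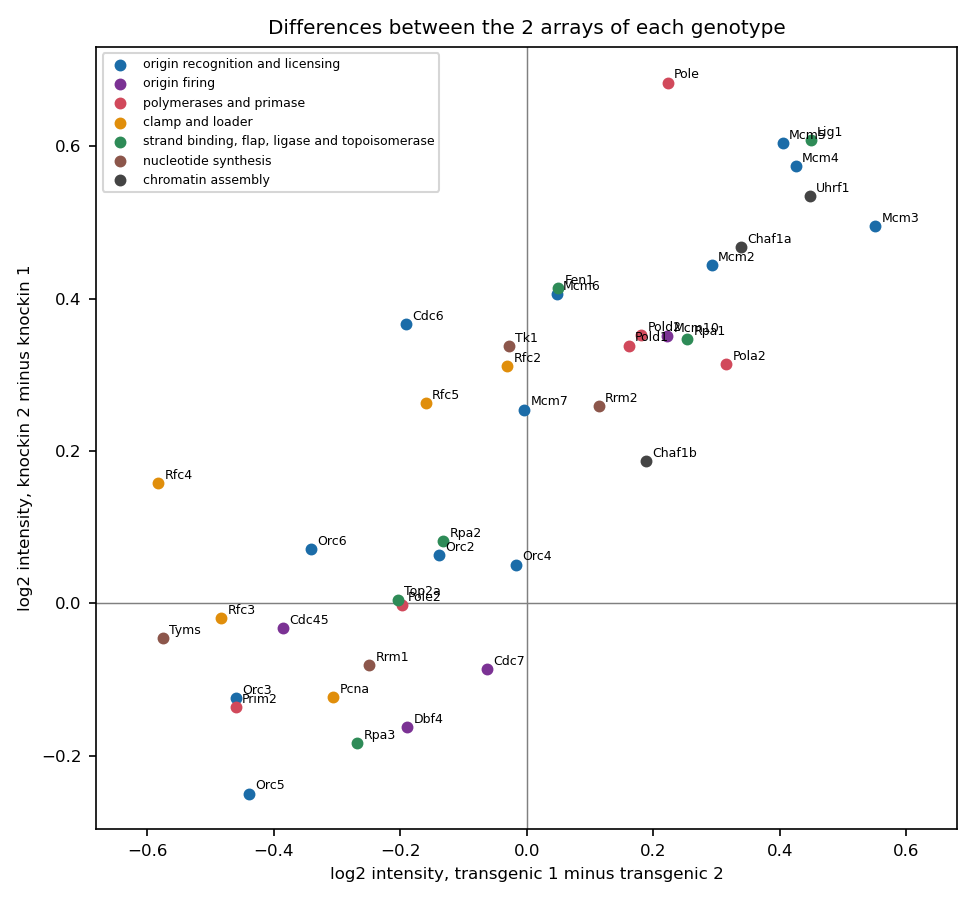
Log2 intensity difference between the transgenic arrays (x axis, 1 minus 2) and between the knockin arrays (y axis, 2 minus 1) for the 40 replication genes, coloured by group. The genes run from Orc5 and Tyms at the lower left to Mcm3, Mcm4, Mcm5, Lig1 and Uhrf1 at the upper right, with r = 0.83 across genes.

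Promoters of the genes on both sides of this split were set beside each other, because S-phase genes are known as targets of E2F transcription factors. The 8-letter E2F-type strings TTTCCCGC, TTTGGCGC, TTTCGCGC and TTTGCCGC were searched on both strands (reverse complements GCGGGAAA, GCGCCAAA, GCGCGAAA and GCGGCAAA) in RefSeq promoters of assembly GRCm38.p6, from 250 bases before to 50 bases after the start. At least 1 string was found in 12 of 38 replication genes with a promoter (31.6%), against 704 of 27025 genes (2.60%), and CCAAT on either strand was found in 23 of 38 (60.5%) against 41.1%. For this count the sides were set by the sign on the brightest probe under the main normalization alone. Among genes that read higher on transgenic array 1 and knockin array 2 the E2F-type strings occurred in 6 of 15 (40.0%). Among genes that read lower on transgenic array 1 they occurred in 5 of 21 (23.8%), namely Mcm7, Cdc6, Orc3, Rfc3 and Pole2. Of these, Mcm7 and Cdc6 are not among the 14 genes above, since their sign turned with median scaling. Both sides of the split thus held genes with and without these strings. A match describes letters only, and the absence of a match says nothing of the factors bound there. The promoters of Mcm5 and Mcm3, from the first side, and of Rfc3 and Tyms, from the other, are shown with matches in capitals.
Mcm5, chr8:75109259-75109558, plus strand: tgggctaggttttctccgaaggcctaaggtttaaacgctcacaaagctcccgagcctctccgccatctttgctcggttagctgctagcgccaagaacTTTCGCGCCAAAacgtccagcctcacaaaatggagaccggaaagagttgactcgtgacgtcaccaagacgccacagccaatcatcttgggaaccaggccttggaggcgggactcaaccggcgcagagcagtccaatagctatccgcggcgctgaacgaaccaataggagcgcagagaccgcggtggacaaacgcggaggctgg
Mcm3, chr1:20820263-20820562, minus strand: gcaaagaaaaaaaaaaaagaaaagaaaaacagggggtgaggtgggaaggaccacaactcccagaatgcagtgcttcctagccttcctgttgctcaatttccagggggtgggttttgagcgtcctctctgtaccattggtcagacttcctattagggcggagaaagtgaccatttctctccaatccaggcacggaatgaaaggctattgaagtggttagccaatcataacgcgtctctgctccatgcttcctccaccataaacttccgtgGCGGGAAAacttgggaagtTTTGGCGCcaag
Rfc3, chr5:151651159-151651458, minus strand: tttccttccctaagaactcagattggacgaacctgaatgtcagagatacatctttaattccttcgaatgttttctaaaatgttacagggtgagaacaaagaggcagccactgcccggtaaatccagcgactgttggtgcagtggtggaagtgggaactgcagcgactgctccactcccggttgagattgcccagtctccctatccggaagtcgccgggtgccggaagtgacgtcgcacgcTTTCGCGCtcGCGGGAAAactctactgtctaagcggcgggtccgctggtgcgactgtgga
Tyms, chr5:30073576-30073875, minus strand: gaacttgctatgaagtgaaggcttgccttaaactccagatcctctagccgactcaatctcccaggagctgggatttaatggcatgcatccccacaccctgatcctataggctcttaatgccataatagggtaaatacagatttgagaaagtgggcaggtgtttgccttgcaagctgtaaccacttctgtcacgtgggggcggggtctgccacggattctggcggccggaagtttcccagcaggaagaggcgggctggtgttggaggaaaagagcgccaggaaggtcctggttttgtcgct
In Mcm5 the strings TTTCGCGC and GCGCCAAA overlapped and began 153 and 149 bases before the start, and in Rfc3 the matches lay 10 bases before and at the start. In Mcm3 both matches lay past the start, and Tyms held none.

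Origin licensing genes split into the helicase, which followed the array pattern, and ORC, which did not. The 6 helicase subunits Mcm2 to Mcm7, a ring that unwinds the duplex, had median log2 differences of 0.35 between the transgenic arrays (1 minus 2) and 0.47 between the knockin arrays (2 minus 1). All 6 were positive between the knockin arrays and 5 of 6 between the transgenic arrays. The 5 ORC subunits had medians of -0.34 and 0.051, the latter -0.071 with probes averaged by gene. For the 12 licensing genes together the medians were -0.011, which turned to 0.11 with median scaling and 0.063 with probes averaged, and 0.31.

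Signal of Mcm5 was 5515.2 and 3765.1 on transgenic arrays 1 and 2, against 4371.0 and 7452.0 on knockin arrays 1 and 2. Signal of Mcm3 was 851.1 and 513.1 on the transgenic arrays, against 659.9 and 1060.7 on the knockin arrays. Both subunits were thus high on transgenic array 1 and knockin array 2 and low on the other 2 arrays, and the genotypes overlapped. After normalization Mcm3 differed by 0.55 between the transgenic arrays and 0.49 between the knockin arrays in log2, and Mcm5 by 0.40 and 0.60. A second Mcm3 probe gave 0.46 and 0.58. The genotype differences were -0.29 for Mcm3 (SE 0.197) and -0.22 for Mcm5 (SE 0.194). Leaving out single arrays moved them from -0.57 (without transgenic array 1) to -0.016 (without transgenic array 2) for Mcm3, and from -0.51 (without knockin array 1) to 0.080 (without knockin array 2) for Mcm5. Mcm4 and Mcm2 showed the same order of arrays, at 0.43 and 0.57 for Mcm4 and 0.29 and 0.44 for Mcm2.

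Mcm6 was read by 4 probes above background. Its brightest probe gave 2887.7 and 2435.8 on the transgenic arrays, against 2393.6 and 3542.5 on the knockin arrays, a genotype difference of -0.051 (SE 0.137). Another probe gave 1595.1 and 1232.4 against 1639.2 and 2447.4, so both knockin arrays lay above both transgenic arrays there. That probe had the smallest p of the 86 probes, with a log2 difference of -0.44 (SE 0.136, 95% interval -0.75 to -0.14, limma adjusted p = 0.813). The remaining bright probe gave -0.16 and a probe at the edge of detection -0.20, so the size of the Mcm6 value depended on the probe. Mcm7 also differed by probe between the transgenic arrays, at -0.0038 on its brightest and 0.53 on its second. All 6 helicase genes had a genotype difference below 0, with a median of -0.15, which was -0.40 without knockin array 1 and 0.085 without knockin array 2.

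Orc5 led the opposite order, with log2 differences of -0.44 between the transgenic arrays and -0.25 between the knockin arrays, and its second probe gave -0.34 and -0.32. Orc3 followed with -0.46 and -0.12. Orc6 had -0.34 and 0.071. Orc4, which had the smallest genotype difference of the licensing genes (0.0017, SE 0.10), read 161.1 and 153.8 on the transgenic arrays, against 154.0 and 165.1 on the knockin arrays. Its 4 values lie so close to background that they show little. Cdc6, which joins ORC to load the helicase, gave -0.19 between the transgenic arrays and 0.37 between the knockin arrays. A dim Cdc6 probe, at signals of 144.6 to 174.9, gave 0.28 and 0.18, so the sign between the transgenic arrays depended on the probe.

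**Figure D3:**
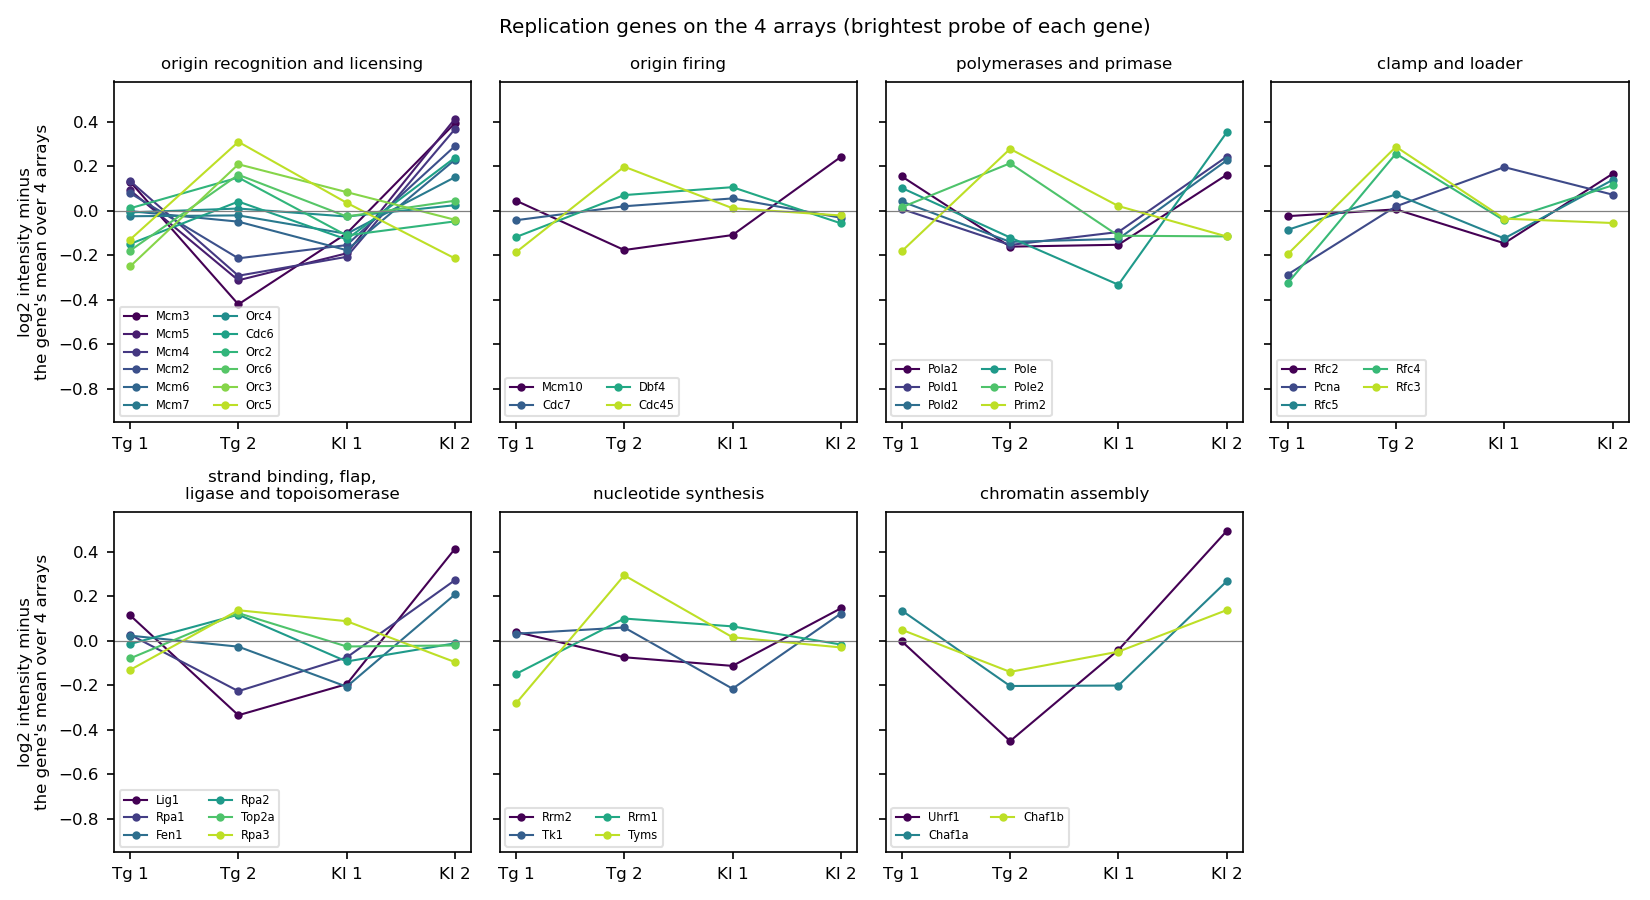
Log2 intensity of each replication gene above background on the 4 arrays (Tg: transgenic, KI: knockin), minus the gene's mean over the arrays, in 1 panel per group, with lines joining the values of a gene. Most Mcm genes, Lig1 and the chromatin assembly genes lie lower on transgenic array 2 and knockin array 1 than on the other array of their genotype, while Tyms, Orc5, Rfc3 and Prim2 peak on transgenic array 2.

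Genes of origin firing, which turn the loaded helicase on, differed among themselves. Mcm10, which helps to open the helicase, read 1922.2 and 1433.6 on the transgenic arrays, against 1600.1 and 2348.3 on the knockin arrays. This was the order of the helicase subunits, with log2 differences of 0.22 and 0.35 within the genotypes and -0.13 between them (SE 0.138). Cdc45, which travels with the active helicase, read 964.4 and 1041.3 on the transgenic arrays, against 976.2 and 1120.8 on the knockin arrays, and after normalization gave -0.38, -0.033 and a genotype difference of 0.011 (SE 0.133). Dbf4, the activator of the Cdc7 kinase, read 1157.5 and 1097.2 against 1196.9 and 1256.2. Its knockin signals lay above its transgenic ones, but its log2 difference of -0.049 (SE 0.115) was smaller than the differences within the genotypes (-0.19 and -0.16). The group medians were -0.13 and -0.060 within the genotypes, and both became positive with median scaling (0.053 and 0.11), a setting that moved the medians of all genes to 0.12 in both cases.

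On the brightest probes, the polymerase complexes were split by subunit. Of the 6 polymerase and primase genes above background, 4 (Pola2, Pold1, Pold2 and Pole) were positive within both genotypes like the helicase. The medians over all 6 were 0.17 between the transgenic arrays and 0.33 between the knockin arrays. Pold1, the catalytic subunit of polymerase delta, read 1717.3 and 1324.0 on the transgenic arrays, against 1469.2 and 2130.3 on the knockin arrays. Pola2, the regulatory subunit of polymerase alpha, read 716.0 and 503.9 against 533.3 and 759.0. Both were lowest on transgenic array 2, and the genotype differences were -0.15 for Pold1 (SE 0.131, and -0.31 or 0.021 without knockin array 1 or 2) and -0.0079 for Pola2 (SE 0.142). Pole, the catalytic subunit of polymerase epsilon, gave 0.22 and 0.68 within the genotypes. The latter was the greatest difference between the knockin arrays among the 40 genes. A dimmer Pole probe, at signals of 159.1 to 181.6, gave -0.31 and 0.16. The sign of Pole between the transgenic arrays thus depended on the probe.

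Their partners did not share this order. Prim2, the large primase subunit that works with Pola2, gave -0.46 and -0.14 within the genotypes, and its second probe -0.35 and -0.012. Pole2, the second subunit of polymerase epsilon, read 148.4 and 152.8 on the transgenic arrays, against 137.7 and 140.6 on the knockin arrays. Both transgenic signals were above both knockin signals, which lay in the background band, and the log2 difference of 0.23 (SE 0.109) is therefore that of a probe at the edge of detection. It was the highest genotype difference of the 40 genes.

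On the brightest probes, none of the sliding clamp and loader genes read higher on transgenic array 1 than on array 2 after quantile normalization, although Rfc2 and Rfc5 did with median scaling (0.11 and 0.046) and a dimmer Rfc5 probe did at 0.048. The 5 genes had a median of -0.31 between the transgenic arrays (-0.14 with median scaling) and 0.16 between the knockin arrays. Pcna, the clamp that holds polymerases on DNA, read 263.4 and 273.5 on the transgenic arrays, against 312.7 and 333.9 on the knockin arrays. The genotypes did not overlap, and the log2 difference was -0.27 (SE 0.125, 95% interval -0.55 to 0.013), which did not pass. It was negative under all 14 alternatives that gave it a value, from -0.43 to -0.11. Rfc3, a loader subunit, read 416.8 and 476.3 on the transgenic arrays, against 413.6 and 471.2 on the knockin arrays. Each genotype held a low and a high array, and after normalization the difference was -0.48 between the transgenic arrays and -0.020 between the knockin arrays, with -0.51 and -0.071 on the second probe. Rfc4, another subunit, gave -0.58 between the transgenic arrays, the most negative value of the 40 genes, and 0.16 between the knockin arrays. Rfc5, with the smallest genotype difference of the group (-0.013, SE 0.122), read 693.8 and 651.0 against 612.2 and 843.9.

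Among the proteins that bind single strands, join fragments and untangle DNA, Lig1 stood out by its order over the arrays. DNA ligase I, its product, seals Okazaki fragments. Its signal was 1222.9 and 767.9 on the transgenic arrays, against 894.0 and 1551.6 on the knockin arrays. Transgenic array 1 and knockin array 2 were high and the other arrays low, and the genotypes overlapped. The log2 differences were 0.45 and 0.61 within the genotypes and -0.22 between them (SE 0.199), the last being -0.52 without knockin array 1 and 0.085 without knockin array 2. Lig1 had 4 probes above background, all with a genotype difference below 0. A dimmer one gave -0.46 (SE 0.191), with arrays that overlapped. Still dimmer ones gave -0.26 (SE 0.119) and -0.16 (SE 0.104), with normalized values that did not overlap between the genotypes. The dimmest, at signals of 150.4 to 171.6, gave -0.096 and 0.094 within the genotypes. The sign of Lig1 between the transgenic arrays thus depended on the probe. Fen1, the flap endonuclease that trims the same fragments, read 3914.9 and 3357.3 against 3138.5 and 4734.0, a genotype difference of -0.0026 (SE 0.138), the smallest of the group.

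Replication protein A, which coats single-stranded DNA, was split like the polymerases. Rpa1, its large subunit, read 6171.7 and 4707.8 on the transgenic arrays, against 5463.1 and 7898.5 on the knockin arrays, with 0.25 and 0.35 within the genotypes and -0.20 between them (SE 0.14). Rpa3, its small subunit, gave -0.27 and -0.18 within the genotypes. Rpa2 lay between them at -0.13 and 0.082. Top2a, the topoisomerase that untangles daughter strands, gave -0.20 between the transgenic arrays and 0.0047 between the knockin arrays.

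On the brightest probes, nucleotide supply genes showed the same division inside ribonucleotide reductase, the enzyme that makes deoxyribonucleotides. Rrm2, its small S-phase subunit, read 688.2 and 550.9 on the transgenic arrays, against 564.5 and 778.5 on the knockin arrays. Rrm1, its large subunit, read 2125.4 and 2192.3 against 2276.4 and 2485.1. In signal, Rrm2 was thus lowest on transgenic array 2 and Rrm1 lowest on transgenic array 1. The normalized log2 differences within the genotypes were 0.11 and 0.26 for Rrm2 and -0.25 and -0.081 for Rrm1. A second Rrm1 probe, at signals of 1836.9 to 2615.1, gave -0.56 and 0.12. The sign of Rrm1 between the knockin arrays thus depended on the probe. A second Rrm2 probe read 503.3 and 416.1 against 486.7 and 649.1. It had a genotype difference of -0.26 (SE 0.114, unadjusted p under 0.05), with normalized values that did not overlap between the genotypes. The brightest Rrm2 probe had -0.034 (SE 0.119). A dim Rrm2 probe, at signals of 143.5 to 163.5, gave 0.17 (SE 0.109), also without overlap after normalization. Within the genotypes that dim probe gave -0.046 and 0.19. The sign of Rrm2 between the genotypes and between the transgenic arrays thus depended on the probe.

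Tyms, thymidylate synthase, makes thymidylate from deoxyuridylate. Its signal was 3164.3 and 4149.7 on the transgenic arrays, against 3624.4 and 3985.5 on the knockin arrays, and transgenic array 2 was the highest of the 4. The log2 difference was -0.58 between the transgenic arrays, -0.75 on the second probe, and -0.046 between the knockin arrays, and the genotype difference was 0.013 (SE 0.165). Dimmer Tyms probes above background gave -0.23 and -0.19, and 0.23 and -0.53, within the genotypes. The only member probe with a limma unadjusted p under 0.05 in the positive direction was a further Tyms probe (0.24, SE 0.1). It did not pass the background limit. Tk1, thymidine kinase, which recycles thymidine, read 1551.3 and 1359.5 against 1200.0 and 1743.9, and its genotype difference was 0.092 (SE 0.126). Dimmer Tk1 probes above background gave 0.17 (SE 0.106) and, at signals of 137.5 to 153.3, -0.23 (SE 0.102). On each of these dimmer probes the normalized values did not overlap between the genotypes. The sign of Tk1 thus depended on the probe, both between and within the genotypes. The group medians were -0.14 between the transgenic arrays, which turned to 0.025 with median scaling, and 0.11 between the knockin arrays.

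**Figure D4:**
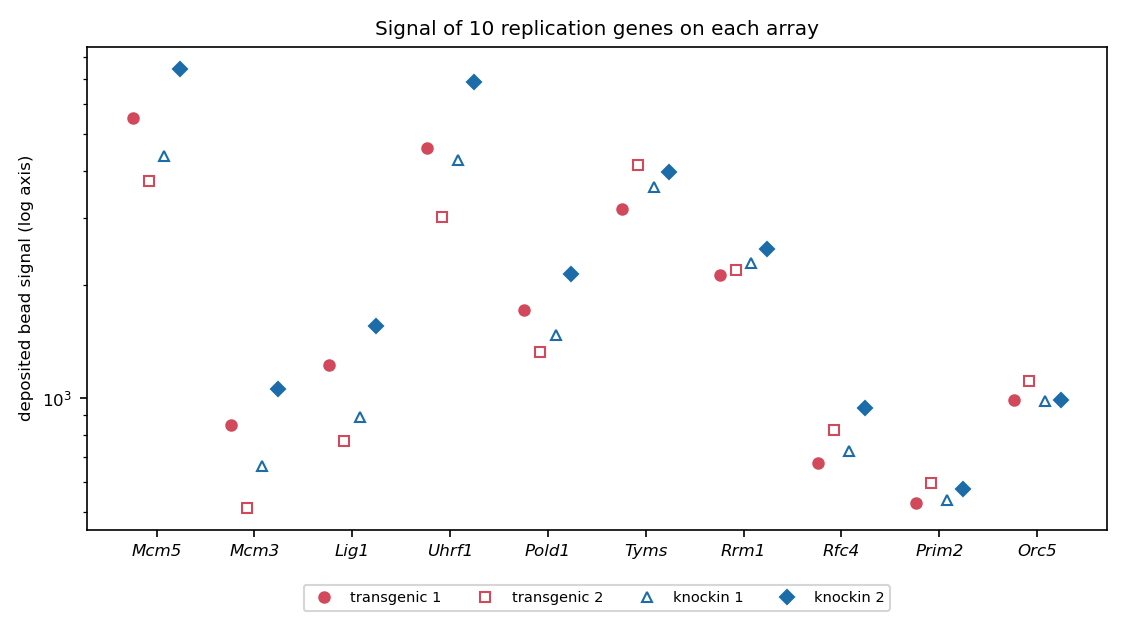
Deposited bead signal (log axis) of 10 replication genes, chosen after their values were seen to show both orders of the arrays, on each of the 4 arrays (red: transgenic, blue: knockin). Mcm5, Mcm3, Lig1, Uhrf1 and Pold1 are lowest on transgenic array 2, whereas Tyms and Orc5 are highest on it and Rrm1, Rfc4 and Prim2 are lowest on transgenic array 1.

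The 3 chromatin assembly genes all followed the helicase, with medians of 0.34 between the transgenic arrays and 0.47 between the knockin arrays. Uhrf1, which recognises hemimethylated DNA and brings the maintenance methyltransferase to it, read 4607.6 and 3029.1 on the transgenic arrays, against 4263.5 and 6873.6 on the knockin arrays. Transgenic array 1 was above knockin array 1, so the genotypes overlapped. Its normalized log2 level was 11.89 ± 0.32 (SD, n = 2) in transgenic and 12.34 ± 0.38 (SD, n = 2) in knockin thymus. The difference of -0.45 (SE 0.188, 95% interval -0.87 to -0.031, limma adjusted p = 0.9996) was the greatest in size of the 40 genes and did not pass. It was -0.71 without knockin array 1 and -0.18 without knockin array 2.

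Chaf1a and Chaf1b are the large and middle subunits of CAF-1. Signal of Chaf1a was 793.1 and 548.0 on the transgenic arrays, against 575.8 and 909.7 on the knockin arrays. Chaf1b read 807.0 and 606.7 against 680.3 and 900.1. Both were high on transgenic array 1 and knockin array 2, and their genotype differences were -0.067 (SE 0.166) and -0.090 (SE 0.117).

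Probes of the same gene mostly gave the same sign between the knockin arrays and less often between the transgenic arrays. Of 20 genes with at least 2 probes above background, all probes had the same sign in 17 between the knockin arrays and in 12 between the transgenic arrays.

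The genes not found under the listed names were looked up after the values were seen, through synonyms in the RefSeq gene table. Cdt1, which loads the helicase together with Cdc6, is carried as RIS2 and read 961.4 and 792.8 on the transgenic arrays, against 1044.4 and 1423.1 on the knockin arrays. The genotypes did not overlap, and the log2 difference was -0.43 (SE 0.113, limma adjusted p = 0.600), which did not pass. Its limma unadjusted p of 0.0036 was below that of the Mcm6 probe (0.0091). Of the 6 older names above background, 3 had a limma unadjusted p under 0.05, 1 higher and 2 lower, against 1191 of 14509 genes. Dut, which removes dUTP from the nucleotide pool, gave -0.28 and -0.22 on its brighter and dimmer probe (limma adjusted p = 0.9996 for both). Rfc1, the large clamp loader subunit, carried as RECC1, gave 0.25 (limma adjusted p = 0.9996). Gins1 and Gins2, subunits of the active helicase, gave 0.027 and, over 3 Gins2 probes, -0.17 to -0.12. Gins1 joined the genes that read lower on transgenic array 1, at -0.58 between the transgenic arrays and -0.041 between the knockin arrays.

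Genes of the same process outside the list held none that passed either. Of 52 other replication genes, a list of further origin, fork, E2F and nucleotide synthesis genes, 46 were above background and 0 passed. At a limma unadjusted p under 0.05 there were 2 of 46, both lower in transgenic thymus, against 1191 of 14509 genes (620 lower). The list had a median genotype difference of -0.048, and medians within the genotypes of -0.0039 and 0.095 (0.18 and 0.26 with median scaling). E2f1, a transcription factor that drives S-phase genes, had -0.44 (SE 0.104, limma adjusted p = 0.484), Impdh2, of guanine nucleotide synthesis, had -0.35, and Cdc25a, a phosphatase of S-phase entry, had -0.23. Mitosis genes, of which 27 of 35 were above background, had a median genotype difference of -0.0099, and also 0 passed. Against the same 1191 of 14509 genes, 3 of the 27 had a limma unadjusted p under 0.05. These were Cdca8 of the chromosomal passenger complex at -0.54 (adjusted p = 0.230), the kinesin Kif23 at 0.37 and the mitotic kinase Plk1 at -0.38. The mitosis medians within the genotypes, -0.11 and -0.011, turned positive with median scaling (0.049 and 0.15).

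Replication-dependent histone genes, which are made in S phase to pack the new DNA, did not follow the replication genes. Of 63 histone genes 54 were above background, and 48 read higher in transgenic thymus, against 7376 of 14509 genes. Of the histone genes 3 passed, namely H4c4 (1.48, limma adjusted p = 0.016), H2bc11 (0.81, adjusted p = 0.0418) and H4c8 (0.98, adjusted p = 0.045). The histone genes had a median genotype difference of 0.59, against -0.038 for the replication genes. At a limma unadjusted p under 0.05 in the higher direction there were 36 histone genes and no replication genes, against 571 of 14509 genes. Signal of H4c4 was 628.4 and 732.0 on the transgenic arrays, against 261.9 and 340.5 on the knockin arrays, so the genotypes were apart. The number of histone genes that passed was 1 without transgenic array 2 and 24 without transgenic array 1, and 0 without background correction or under median scaling. Histone genes are near-identical copies that can share signal, so single names are uncertain and the genes are not separate measurements. Between the transgenic arrays their median was -0.38, as for the ORC subunits rather than the helicase.

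**Figure D5:**
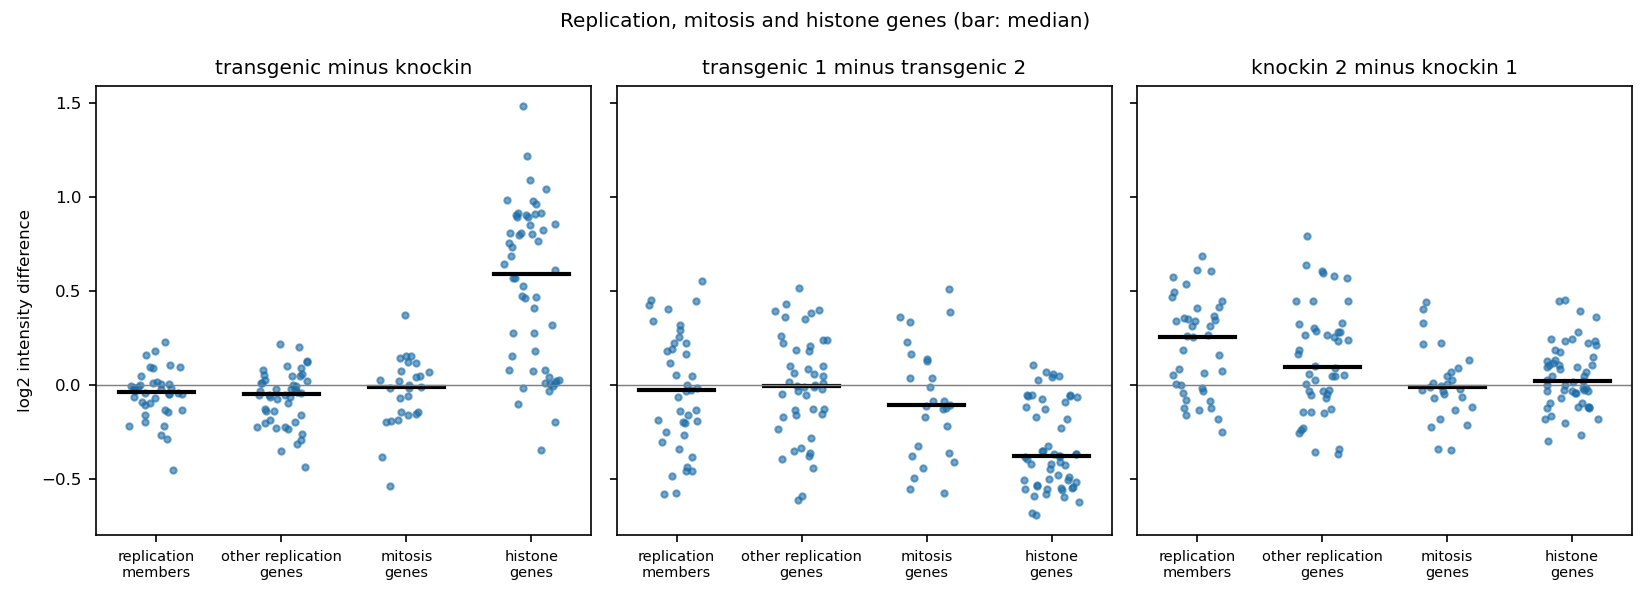
Log2 intensity differences of the 40 replication genes, 46 other replication genes, 27 mitosis genes and 54 histone genes above background (points: genes, bar: median), between genotypes (left), between transgenic arrays (middle) and between knockin arrays (right). The histone median of 0.59 between genotypes stands apart from medians of -0.048 to -0.0099 in the other lists.

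Other measures differed between the same arrays. Summed signal of the replication genes was 72487.8 and 62276.2 on the transgenic arrays, against 64925.9 and 88901.7 on the knockin arrays. Transgenic array 1 and knockin array 2 were the upper pair here and in the share of all probes above background. They were also the upper pair in the summed signal of all genes, at 18828358.4 and 17120100.5 against 17942565.1 and 19837260.7. The order of these raw sums is therefore not particular to the replication genes. Among beta-actin probes, the probe at 7623.5 and 4173.6 on the transgenic arrays read 6703.1 and 11395.9 on the knockin arrays, while a dim probe ran the opposite way, at 218.7 and 376.9 against 212.7 and 163.4. Brown fat genes, listed after the values were seen, had 6 of 11 members above background. All 6 read higher on transgenic array 1 and knockin array 2, against 4408 of 14509 genes. Ucp1, the uncoupling protein of brown fat, read 849.0 and 149.3 on the transgenic arrays, against 176.9 and 441.3 on the knockin arrays, and the summed signal of the list was 4791.6 and 2035.5 against 2039.2 and 3270.9.

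Markers of early double-negative thymocytes, all 6 above background, had medians of 0.14 between the transgenic arrays and 0.30 between the knockin arrays (0.32 and 0.49 with median scaling). Of the 6, 4 read higher on transgenic array 1 and 6 on knockin array 2, against 7241 and 7010 of 14509 genes. Their summed signal was 2467.5 and 1956.8 against 2065.6 and 2816.6. Kit, the receptor of early progenitors, was named after its values were seen and gave 0.40 and 0.46. Between the knockin arrays, macrophage markers (0.29), fibroblast markers (0.32) and granulocyte markers (0.35) had similar medians. Between the transgenic arrays these lists had -0.013, -0.24 and 0.24. Double-positive markers, 6 of 8 above background, had medians of -0.098 and -0.25, which median scaling moved to 0.080 and -0.067, with summed signals of 8153.4 and 7609.1 against 8891.5 and 8682.7. Granulocyte markers, of which 3 of 6 passed between the genotypes, had a median genotype difference of -1.19 and summed signals of 4476.0 and 3340.8 against 8548.0 and 11173.5. The part of tissue make-up, array brightness, probe behaviour and sex in the differences between arrays was not tested.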

How the data were processed

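Total RNA of 4 whole-thymus samples was amplified to biotin-labelled cRNA and read on Illumina bead arrays of 45281 probes, 1 sample per array. Per the file headers, the deposited table holds average bead signal intensity from GenomeStudio 1.9.0 with no normalization, and the authors' deposited value table holds processed intensity on a linear scale, with background and normalization steps not given in the sources used here. No gene names go with the second table, which served only to count probes on the log2(value + 8) scale.

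Background was corrected by normexp with an offset of 50, since neqc, named first in the design, needs detection p-values or control probes that this table does not carry. Values were quantile normalized on the log2 scale and fitted in R 4.3.3 with limma 3.58.1 (functions lmFit and eBayes, 2 against 2 arrays, two-sided, Benjamini-Hochberg adjustment over all probes, threshold 0.05). The offset and the quantile step shrink differences of dim probes and remove shifts shared by all genes. The background limit of an array lies 3 SDs above its most common signal, the SD being that of the values under the mode. On simulated data for this comparison with changed probes of mean log2 above 8 among 45281, recovery was 68.7% at a 1.5-fold change and 100% at 2-fold and at 4-fold, with 18 false calls. The simulated noise was independent between probes and arrays, without differences that genes of an array share. The median SE was 0.136 for the replication genes, against 0.114 for all genes above background. These shares are therefore not the recovery to be had for the replication genes.

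The genes and lists were chosen with earlier results of these data known, and no list was tested as a set. Values on every array are given for genes with a probe above background at an unadjusted p under 0.05 whose genotypes did not overlap, and in each group for the 2 genes with the greatest difference in size and the gene with the smallest; comparison lists name the 3 genes of smallest p. Beta-actin, brown fat and older-name probes, and the further genes given by difference or by signal range alone, were named after their values were seen. Same-numbered samples deviated in opposite directions (r = -0.34 across 14509 genes), so the numbers were not taken as pairs. The array labels share the same number and differ by letter, A and B for transgenic and E and F for knockin samples. The letters thus run with genotype, and an effect of what they stand for cannot be told apart from genotype. Promoter and microRNA sequences are from RefSeq (GRCm38.p6). Figures were drawn with matplotlib 3.10.9 in Python 3.11.15.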

Additional observations from a re-analysis of the deposited data

How the results depend on the processing

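The genotype result for the replication genes held in that 0 of their probes passed under the 13 alternatives named at the start that could be run on them, and the count at an unadjusted p under 0.05 ran from 1 to 15 probes. The count over all probes (36) was 3 without background correction, 70 with an offset of 16, 2 with median scaling, 112 with an intensity trend and robust priors, 18 with probes averaged by gene, 0 in the authors' value table (3299 at an unadjusted p under 0.05), and 24 to 88 when single arrays were left out. With the replicate number as a block 38 probes and 0 replication probes passed; with the crossed pairing as a block, chosen after seeing the data, 364 passed, 3 of them of replication genes (Lig1, Mcm6 and Uhrf1). Leaving out single arrays moved the median genotype difference from -0.16 to 0.064 for all replication genes, -0.22 to 0.078 for licensing, -0.22 to 0.11 for polymerases, -0.074 to 0.094 for nucleotide synthesis, -0.30 to 0.0042 for chromatin assembly, -0.040 to 0.18 for ORC, -0.12 to 0.0041 for other replication genes, -0.042 to 0.087 for mitosis genes and 0.40 to 0.81 for histone genes. Median scaling moved the median over all genes to -0.035 between genotypes and, within the genotypes, to 0.12 in both (cyclic loess gave -0.00074 for the knockin arrays). It gave medians between the transgenic arrays of 0.091 (all replication genes), 0.11 (licensing), 0.053 (firing), 0.37 (polymerases), -0.14 (clamp and loader), 0.13 (strand binding group), 0.025 (nucleotide synthesis), -0.18 (ORC), 0.18 (other replication) and 0.049 (mitosis). Between the knockin arrays it gave 0.44 (all replication genes), 0.48 (licensing), 0.11 (firing), 0.51 (polymerases), 0.35 (clamp and loader), 0.38 (strand binding group), 0.27 (nucleotide synthesis), 0.26 (other replication) and 0.15 (mitosis). The cause of these moves was not tested beyond the shift of all genes. Relative to the shift of all genes under that setting, 19 replication genes were above and 13 below on both sides, against 17 and 11 under the main normalization, and r across the genes stayed between 0.83 and 0.84 under the 5 normalizations. Probes near the background limit (Orc2, Orc4, Pole2) carry little information at this signal.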
